A study of Heterocephalus glaber with 2 samples.

Results

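The ADAM and ADAMTS proteases were examined by RNA-seq in NSFs, the skin fibroblasts of the naked mole-rat (NMR), with and without knockdown of *β-catenin*. Genes were taken by symbol, as Adam, Adamts or Adamtsl followed by a number, which gave 41 of the 37520 entries listed for each library. These were 17 ADAM, 19 ADAMTS and 5 ADAMTS-like (ADAMTSL) genes, each held by 1 entry. The data are 1 *shβ-catenin* library, from NSFs transduced with lentiviral hairpin #1 against *β-catenin*, and 1 shControl library, from NSFs transduced with the empty vector. Both groups were primary fibroblasts of adult NMRs, grown under hypoxic conditions and selected as bulk cultures with puromycin, so each group is a mixed population and not a clone. The control carries no hairpin, and only 1 of the study's hairpins against *β-catenin* was sequenced. The age of the animals beyond adult and their number are not given in the sources used here.

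ADAMs are membrane-anchored proteins with a disintegrin domain beside a metalloprotease domain. Those with an intact catalytic site shed the outer part of growth factors, cytokine receptors, Notch and adhesion molecules from the cell surface, and others have lost the site and act in adhesion. ADAMTS proteases are secreted, bind the extracellular matrix through thrombospondin repeats and cut proteoglycans, procollagens and glycoproteins, and ADAMTSL proteins share these repeats but have no protease domain. Fibroblasts are a main source of both kinds of secreted protein in skin, where they shape the collagen and hyaluronan-rich matrix.

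Values are FPKM as deposited (fragments relative to the length of the exons and to the mapped total of the library), so levels can be compared between genes. Genes averaging 1 FPKM or more over both libraries are called expressed below. A log2 fold-change is that of *shβ-catenin* over shControl after adding 0.1 FPKM to each, and a negative value means lower in *shβ-catenin* cells. Counts of expressed genes past 2-fold or 4-fold use this value. A fold printed for a single gene is the ratio of the FPKM as deposited, without the addition, so it can be somewhat larger than the log2 fold-change gives. Each condition has 1 library, so no difference could be tested against replicates, and every comparison describes these libraries. *Ctnnb1*, the target of the hairpin, was listed at 69.0 FPKM in the *shβ-catenin* library and 530 FPKM in the shControl library, in the direction the labels give.

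The libraries held 20648 genes above 0 in *shβ-catenin* and 20198 in shControl, with FPKM sums of 591905 and 609786. Read counts are unknown. Of 10 fibroblast markers 8 were expressed, and the summed level of the 10 was 4828 FPKM in *shβ-catenin* and 6652 FPKM in shControl cells. Vimentin and type I collagen genes were abundant, but *Dcn*, *Lum* and *Thy1*, which also define fibroblasts, were low (from 1.38 to 2.42 FPKM in *shβ-catenin* and from 0.303 to 0.574 FPKM in shControl). The markers differed in direction. Of the 8 expressed, 6 were lower, none by 2-fold, and 2 were more than 2-fold higher in *shβ-catenin* cells, *Dcn* (7.67-fold) and *Fap* (2.15-fold). *Dcn* averaged 1 FPKM or more only through the *shβ-catenin* library, where it was high. *Thy1* and *Lum*, which averaged under 1 FPKM, were 4.61-fold and 2.40-fold higher as deposited. Of 9 leukocyte markers measured, 3 were expressed (*Lyz*, *Cd14* and *Cd68*). All 3 were more than 2-fold higher in *shβ-catenin* cells, where 3.27% of all expressed genes were. The summed level over the 9 was 208 against 71.8 FPKM. *Ptprc* and *Cd3e*, which define leukocytes and T cells, were listed at 0 in both libraries. Of the rest, all averaging under 1 FPKM, *Csf1r* and *Itgam* were listed higher and *Tyrobp* and *Cd79a* lower in *shβ-catenin* cells. Of 6 endothelial markers, only *Pecam1* was expressed, and this through the *shβ-catenin* library alone (2.08 against 0.275 FPKM). *Tek* and *Tie1* were listed at 0 in both. The summed level of these 6 was 2.42 FPKM in *shβ-catenin* and 0.342 FPKM in shControl cells. The 5 keratinocyte markers measured summed to 0.270 and 0.0462 FPKM, with *Krt5* and *Krt1* at 0 in both libraries. Of 4 smooth muscle markers, *Des* was at 0 in both and *Acta2* and *Cnn1* were lower in *shβ-catenin* cells, with a summed level of 612 against 887 FPKM. The part of these shifts in the values below was not tested. In such bulk cultures, fewer cells of a type and less RNA per cell cannot be told apart.

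Of the 41 genes 22 were expressed. In *shβ-catenin* cells 14 of them were higher and 8 lower. Among all 13097 expressed genes, 48.7% were higher. The median log2 fold-change of the 22 was 0.13, against −0.01 over all 13097 genes. The median size of the difference, regardless of sign, was 0.31 for the 22 and 0.23 for all genes. None of the 22 was more than 2-fold higher, where 3.27% of all expressed genes were. 2 were more than 2-fold lower, *Adam33* and *Adam12*, where 2.05% of all expressed genes were. None passed 4-fold, the threshold of the study's methods, which 0.680% of all expressed genes passed upward and 0.206% downward. The study's methods state no filter on low values and no pseudocount, so its own 4-fold list is not the same measure. Without the filter on low values the median of the 35 genes above 0 in a library was 0.03, and that of the 16 genes averaging 5 FPKM or more was 0.05. The family as a whole therefore stood close to even between the libraries, and the differences were between its members.

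**Figure D1:**
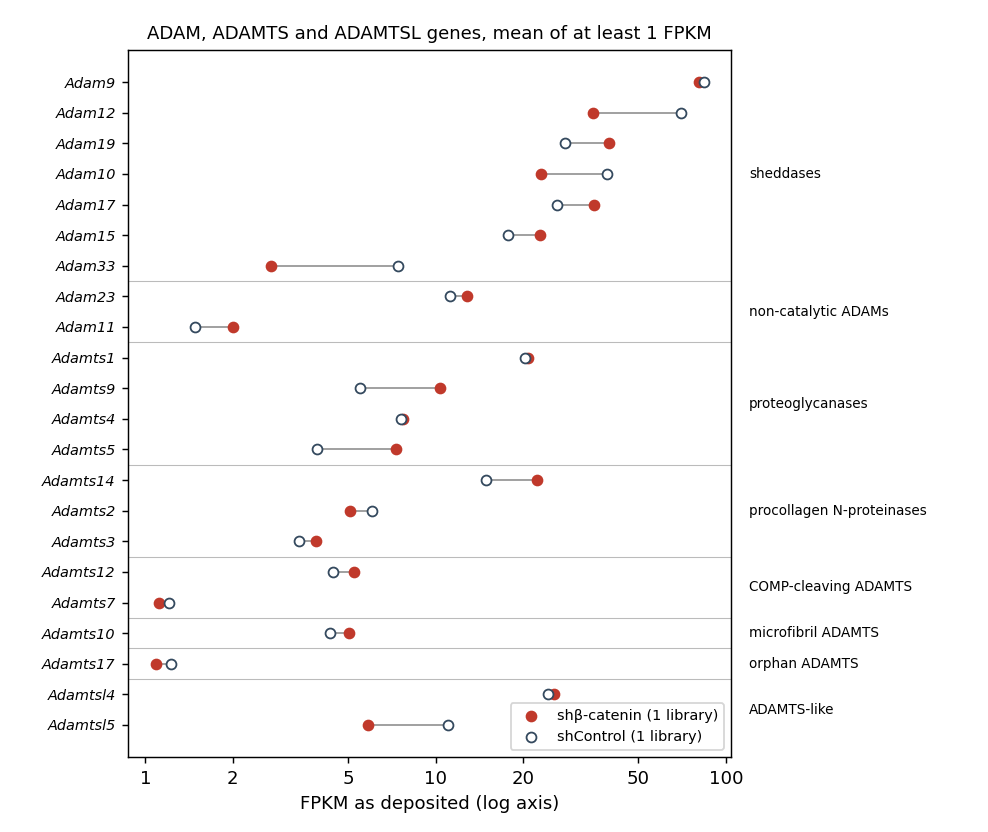
FPKM of the 22 expressed ADAM, ADAMTS and ADAMTSL genes, on a log axis, grouped by role. Filled points are the *shβ-catenin* library and open points the shControl library (1 library each, no error bars). The widest gaps are those of *Adam33* (2.70 against 7.44 FPKM) and *Adam12* (34.9 against 70.2 FPKM).

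All members together made up 0.0637% of the FPKM sum in *shβ-catenin* and 0.0649% in shControl cells. ADAMs supplied most of it, with 67.5% of the members' sum in *shβ-catenin* and 72.2% in shControl cells. ADAMTS genes supplied 24.0% and 18.7%, and ADAMTSL genes 8.43% and 9.06%. In absolute terms the ADAM sum was 255 FPKM in *shβ-catenin* against 286 FPKM in shControl cells, while the ADAMTS sum was 90.7 against 74.1 FPKM. The ADAM sum was thus lower after knockdown and the ADAMTS sum higher, but the single genes did not divide in this way. Of 9 expressed ADAMs 5 were higher and 4 lower (median log2 fold-change 0.20). Of 11 expressed ADAMTS genes 8 were higher and 3 lower (median 0.19). The largest falls within the ADAM sum were those of *Adam12* and *Adam10*.

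The first group by role comprised 9 catalytically active ADAMs of somatic tissues, listed here as sheddases, of which 7 were expressed. In *shβ-catenin* cells 3 of the 7 were higher and 4 lower (median log2 fold-change −0.05). Their levels differed from each other by far more than between libraries, from 2.70 to 80.9 FPKM in *shβ-catenin* and from 7.44 to 83.9 FPKM in shControl cells.

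*Adam9*, a widely expressed sheddase, was the most abundant member in both libraries, at 80.9 FPKM in *shβ-catenin* and 83.9 FPKM in shControl cells (log2 fold-change −0.05). It ranked at place 1082 among all entries in *shβ-catenin* and at place 1074 in shControl cells, so its standing was nearly level.

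*Adam12* (meltrin α), which cuts heparin-binding EGF-like growth factor and IGF-binding proteins and is found in growing muscle, bone and activated stromal cells, was listed at 34.9 FPKM in *shβ-catenin* and 70.2 FPKM in shControl cells. The value was 2.01-fold lower after knockdown, a log2 fold-change of −1.004, just past 2-fold, and 2.03% of all expressed genes had a lower log2 fold-change. Because it lies on the threshold, other settings place it on the other side (−0.99 with a pseudocount of 1 and with median ratio scaling, −0.98 with upper quartile scaling). *Adam12* was second among the members in shControl cells. In *shβ-catenin* cells *Adam19* stood above it, and *Adam17* was nearly equal to it (35.0 against 34.9 FPKM).

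*Adam33*, an ADAM of mesenchymal cells known in humans as an asthma susceptibility gene, was listed at 2.70 FPKM in *shβ-catenin* and 7.44 FPKM in shControl cells. It was 2.76-fold lower, a log2 fold-change of −1.43, the lowest value of the 22. Only 0.634% of all expressed genes had a lower one. At a pseudocount of 1 it was −1.19.

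*Adam10* and *Adam17* are the principal sheddases of most cells. ADAM10 cuts Notch after ligand binding, N-cadherin and the amyloid precursor protein, and ADAM17 releases tumor necrosis factor and ligands of the EGF receptor. *Adam10* was listed at 23.0 FPKM in *shβ-catenin* and 38.9 FPKM in shControl cells, a 1.69-fold lower value (log2 fold-change −0.75), and 4.09% of all expressed genes had a lower log2 fold-change. *Adam17* was listed at 35.0 FPKM in *shβ-catenin* and 26.2 FPKM in shControl cells, a 1.34-fold higher value (log2 fold-change 0.42), and 87.1% of all expressed genes had a lower one. The order of the pair was thereby opposite in the libraries, with *Adam17* above *Adam10* in *shβ-catenin* cells and below it in shControl cells. Neither passed 2-fold.

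*Adam19* (meltrin β), a sheddase of neuregulin, was listed at 39.6 FPKM in *shβ-catenin* and 28.0 FPKM in shControl cells, 1.41-fold higher, and was the second most abundant member after knockdown. *Adam15*, which carries an integrin-binding motif, was listed at 22.8 and 17.7 FPKM, 1.29-fold higher in *shβ-catenin* cells. *Adam8*, best known in leukocytes, was listed at 0.0715 FPKM in *shβ-catenin* and 0.0298 FPKM in shControl cells, and *Adam28*, first described in lymphocytes, at 0 in both. Both of these sheddases of blood cells were therefore at or near 0. As deposited, *Adam8* was 2.40-fold higher in *shβ-catenin* cells, and no counting interval could be given for it.

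As shares of the sheddase sum (239 FPKM in *shβ-catenin* and 272 FPKM in shControl cells), *Adam12* made up 14.6% in *shβ-catenin* against 25.8% in shControl cells and *Adam10* 9.64% against 14.3%. *Adam19* made up 16.6% against 10.3%, *Adam17* 14.6% against 9.61% and *Adam15* 9.55% against 6.50%. *Adam9* held the first place with 33.8% in *shβ-catenin* and 30.8% in shControl cells.

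**Figure D2:**
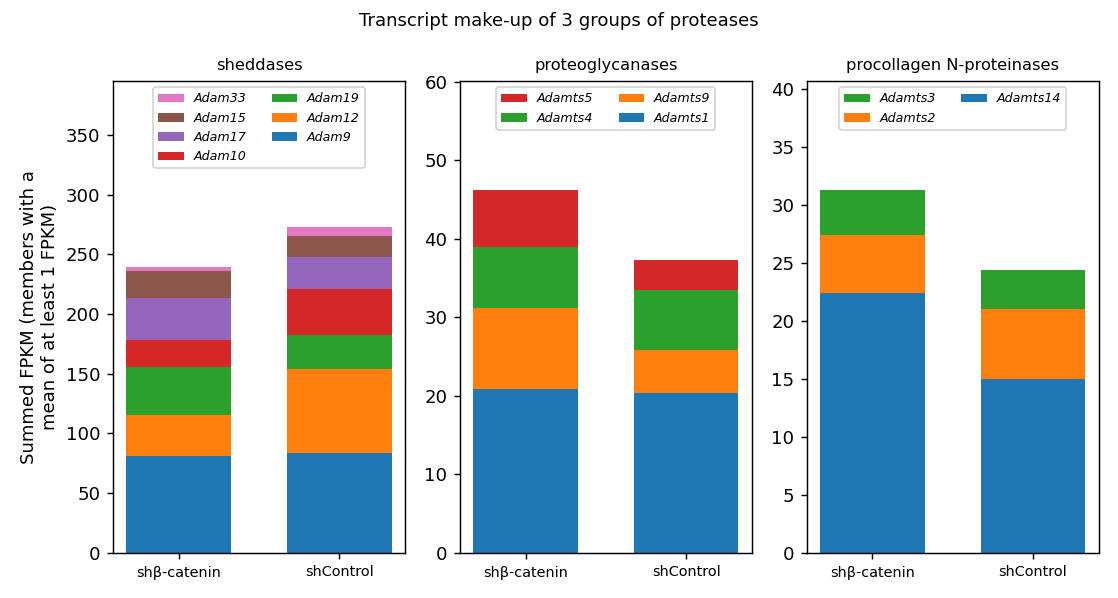
Stacked FPKM of the sheddases, the proteoglycanases and the procollagen N-proteinases, expressed genes only, in the *shβ-catenin* library (left bar of each panel) and the shControl library (right bar). The sheddase stack is lower in *shβ-catenin* cells through *Adam12*, *Adam10* and *Adam33*, and the proteoglycanase stack is higher through *Adamts9* and *Adamts5*.

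*Adam11*, *Adam22* and *Adam23* encode ADAMs without a working catalytic site, known in neurons as surface partners of LGI proteins. All 3 were listed higher in *shβ-catenin* cells, none by 2-fold. *Adam23* was the one with a sizeable level, at 12.9 FPKM in *shβ-catenin* and 11.2 FPKM in shControl cells. *Adam11* was listed at 1.998 and 1.48 FPKM (1.35-fold higher in *shβ-catenin* cells) and *Adam22*, under the 1 FPKM limit, at 0.786 and 0.617 FPKM. Of the ADAMs of the germ line, which act mainly in sperm and the reproductive tract, 5 were measured. *Adam7*, *Adam29* and *Adam32* were listed at 0 in both libraries, *Adam2* at 0.0426 FPKM in *shβ-catenin* and 0 in shControl cells, and *Adam18* at 0 in *shβ-catenin* and 0.0418 FPKM in shControl cells.

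Among the ADAMTS proteases, the 7 proteoglycanases cut aggrecan, versican and related proteoglycans that bind hyaluronan. Of these, 4 were expressed and all 4 were higher in *shβ-catenin* cells (median log2 fold-change 0.46), but they formed pairs. *Adamts9* and *Adamts5* were nearly 2-fold higher and *Adamts1* and *Adamts4* were almost level.

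*Adamts9*, a versican-cleaving protease of developing tissues, was listed at 10.4 FPKM in *shβ-catenin* and 5.47 FPKM in shControl cells, 1.89-fold higher (log2 fold-change 0.91, the highest of the 22). *Adamts5*, the main aggrecanase of mouse cartilage, was listed at 7.31 FPKM in *shβ-catenin* and 3.89 FPKM in shControl cells, 1.88-fold higher (log2 fold-change 0.89, and 0.76 with a pseudocount of 1). Of all expressed genes, 96.0% had a lower log2 fold-change than *Adamts9* and 95.9% a lower one than *Adamts5*. Neither passed 2-fold under any setting tried.

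*Adamts1*, the most abundant proteoglycanase, which is known as a gene induced by inflammation and at ovulation, was listed at 20.8 FPKM in *shβ-catenin* and 20.3 FPKM in shControl cells. *Adamts4*, the other classical aggrecanase, was listed at 7.75 and 7.62 FPKM. Their log2 fold-changes of 0.03 and 0.02 were close to the median of all expressed genes. In the RefSeq annotation *Adamts5* and *Adamts1* are direct neighbors with no protein-coding gene between them, yet 1 was 1.88-fold higher and the other 1.02-fold. The share of *Adamts1* in the proteoglycanase sum was 44.5% in *shβ-catenin* against 53.0% in shControl cells, while that of *Adamts9* was 22.2% against 14.3% and that of *Adamts5* 15.6% against 10.1%.

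The other 3 proteoglycanases averaged under 1 FPKM. *Adamts15* was listed at 0.372 FPKM in *shβ-catenin* and 0.883 FPKM in shControl cells, a 2.37-fold lower value as deposited (log2 fold-change −1.06). Its abundant relatives were level or higher, but no counting interval could be given for *Adamts15*. Among all genes averaging under 1 FPKM with at least 0.1 FPKM in a library, 18.4% were more than 2-fold lower. *Adamts20* was listed at 0.143 and 0.145 FPKM, and *Adamts8*, the direct neighbor of *Adamts15* in the RefSeq annotation, at 0 in both libraries.

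*Adamts2*, *Adamts3* and *Adamts14* encode the procollagen N-proteinases, which remove the aminopropeptide so that fibrillar collagen can assemble, and ADAMTS3 also takes part in activating VEGF-C. All 3 were expressed, 2 higher and 1 lower. *Adamts14* was the most abundant, at 22.4 FPKM in *shβ-catenin* and 15.0 FPKM in shControl cells, 1.49-fold higher (log2 fold-change 0.58). *Adamts2*, the best-known of these enzymes in skin, whose loss in humans causes a fragile-skin form of Ehlers-Danlos syndrome, was listed at 5.07 and 6.04 FPKM, 1.19-fold lower in *shβ-catenin* cells. *Adamts3* was listed at 3.86 and 3.38 FPKM. *Adamts14* therefore made up 71.5% of the group's sum in *shβ-catenin* and 61.4% in shControl cells, and the sum itself was 31.3 against 24.4 FPKM.

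**Figure D3:**
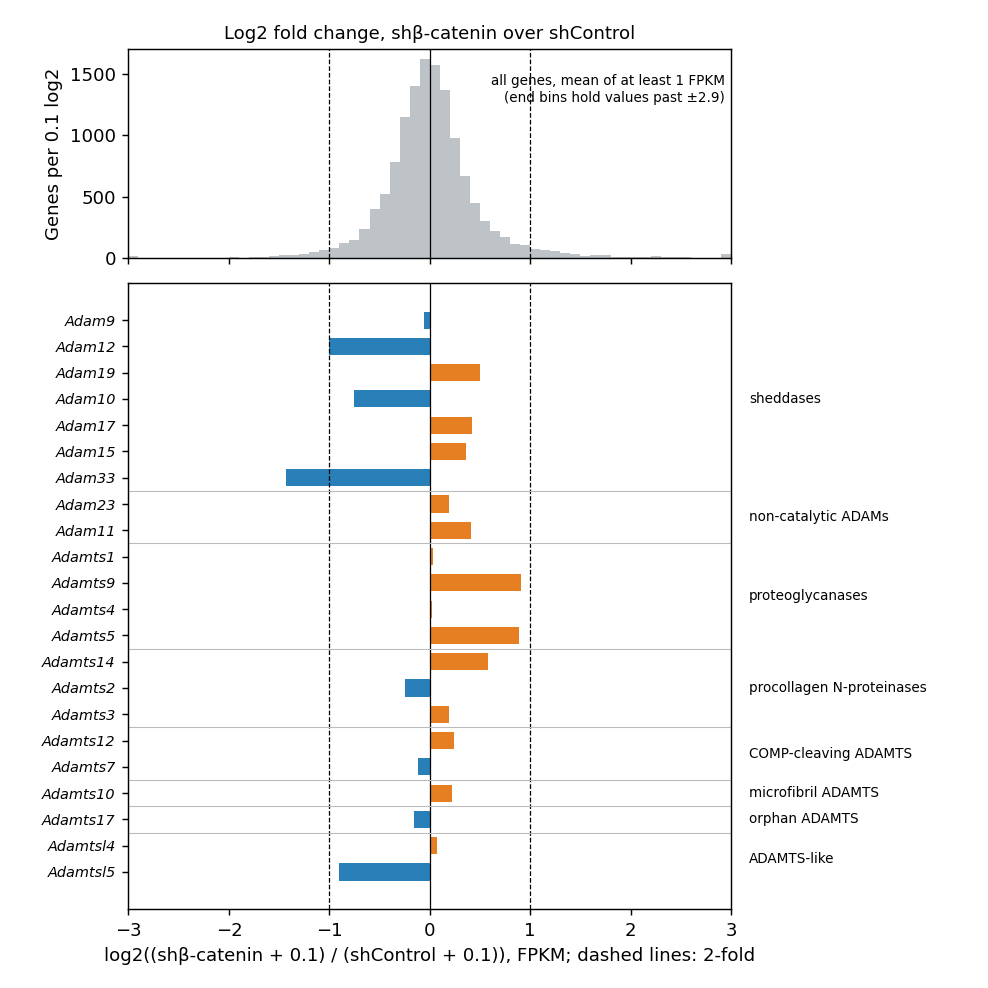
Log2 fold-changes (*shβ-catenin* over shControl, pseudocount 0.1 FPKM) of the 22 genes as bars, below a histogram of all 13097 expressed genes. Dashed lines mark 2-fold in each direction. *Adam33* and *Adam12* are the bars past the lower line, *Adam12* only just, and none passes the upper line.

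Of the remaining ADAMTS genes 4 were expressed, none of them 2-fold apart. *Adamts12* and *Adamts7*, which cut cartilage oligomeric matrix protein (COMP), were listed at 5.25 FPKM in *shβ-catenin* against 4.42 FPKM in shControl cells and at 1.11 against 1.21 FPKM. *Adamts10*, a partner of fibrillin microfibrils, was listed at 5.05 and 4.31 FPKM. *Adamts6*, its closest relative, was low, at 0.0650 FPKM in *shβ-catenin* and 0.149 FPKM in shControl cells, 2.29-fold lower as deposited. The smallest whole fragments with this ratio are 4 in *shβ-catenin* and 11 in shControl cells. At these counts the exact Clopper-Pearson 95% interval of the ratio ran from 0.102 to 1.48, so a difference was not detectable at this depth if these were the fragments counted. Larger counts in the same proportion would give a narrower interval. The interval covers counting error only.

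*Adamts17*, which like *Adamts10* is mutated in forms of human Weill-Marchesani syndrome, was listed at 1.09 FPKM in *shβ-catenin* and 1.22 FPKM in shControl cells. Of the other ADAMTS genes with few known substrates, *Adamts18* and *Adamts19* were under 0.1 FPKM in both libraries and *Adamts16* was listed at 0 in both. *Adamts13*, the protease of von Willebrand factor made mainly in the liver, was listed at 0 in *shβ-catenin* and 0.0388 FPKM in shControl cells.

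Of the ADAMTSL genes, *Adamtsl4* and *Adamtsl5*, which encode proteins that bind fibrillin microfibrils, were expressed and differed from each other. *Adamtsl4*, mutated in human lens dislocation, was the most abundant gene of the ADAMTS and ADAMTSL genes in both libraries, at 25.6 FPKM in *shβ-catenin* and 24.4 FPKM in shControl cells. *Adamtsl5* was listed at 5.87 FPKM in *shβ-catenin* and 11.1 FPKM in shControl cells, 1.89-fold lower (log2 fold-change −0.90), and 2.65% of all expressed genes had a lower log2 fold-change. *Adamtsl3* was listed at 0.293 and 0.325 FPKM. *Adamtsl2* was listed at 0 in *shβ-catenin* and 0.0734 FPKM in shControl cells. *Adamtsl1* was listed at 0.0148 and 0.0123 FPKM, the ratio of 1 fragment to 1 fragment (interval 0.0153 to 94.4). *Thsd4*, a relative of the ADAMTSL genes outside the symbols used here, was listed at 2.47 and 2.50 FPKM, and *Adamdec1*, between *Adam7* and *Adam28* in the annotation, at 0 in both.

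In all, 19 members averaged under 1 FPKM. Of these, 6 were listed at 0 in both libraries, 3 at 0 in *shβ-catenin* only and 1 at 0 in shControl only. The share at 0 in both was thus 6 of all 41 members, against 41.0% of all 37520 entries. A listed 0 does not show absence. The other 9 of the 19 were above 0 in both, 5 higher and 4 lower in *shβ-catenin* cells. Of the 5 low members with at least 0.1 FPKM in a library, 2 were more than 2-fold lower (*Adamts15* and *Adamts6*) and none more than 2-fold higher. Among all 6248 genes of this range, 18.4% were more than 2-fold lower and 35.0% more than 2-fold higher.

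The inhibitors and partners of these proteases were described from a list of 20 genes. Of these 17 were expressed. In *shβ-catenin* cells 10 were higher and 7 lower (median log2 fold-change 0.06). 3 of the 17 were more than 2-fold higher, where 3.27% of all expressed genes were, and none more than 2-fold lower, where 2.05% were. Of the 3, *Pcsk6* averaged 1 FPKM or more only through the *shβ-catenin* library, where it was high (2.78 against 0.749 FPKM). *Sdc4* was close to the threshold (2.01-fold).

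Tissue inhibitors of metalloproteinases block the catalytic site, and TIMP3 is the member that acts on ADAM and ADAMTS proteases most broadly. *Timp3* was listed at 84.5 FPKM in *shβ-catenin* and 111 FPKM in shControl cells, *Timp2* at 89.6 and 132 FPKM, and *Timp1* at 275 and 277 FPKM. *Timp3* and *Timp2* were therefore 1.31-fold and 1.47-fold lower, and *Timp1* was level. *Timp4* was under 0.1 FPKM in both. *Reck*, a membrane inhibitor of metalloproteinases including ADAM10, was 2.15-fold higher, at 30.6 against 14.2 FPKM.

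ADAM10 is carried to the surface by tetraspanins of the TspanC8 group, and ADAM17 by iRhoms (*Rhbdf1*, *Rhbdf2*) with *Frmd8*. Of these 9 genes 7 were expressed, 4 higher and 3 lower, none by 2-fold. *Tspan17*, the most abundant, was listed at 103 FPKM in *shβ-catenin* and 95.3 FPKM in shControl cells, and *Tspan14* at 21.8 and 20.1 FPKM. *Tspan15*, which directs ADAM10 to N-cadherin, was listed at 10.4 and 17.1 FPKM, 1.65-fold lower. *Rhbdf1* was listed at 9.78 and 12.5 FPKM and *Frmd8* at 11.2 and 9.03 FPKM, so the partners of ADAM17 differed in direction.

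Proprotein convertases remove the prodomain that keeps ADAM and ADAMTS proteases inactive. *Furin*, the main one, was listed at 48.7 FPKM in *shβ-catenin* and 33.3 FPKM in shControl cells, 1.46-fold higher. *Pcsk6* was 3.71-fold higher, at 2.78 against 0.749 FPKM, and *Pcsk5* 1.87-fold lower, at 0.877 against 1.64 FPKM. *Pcsk7* was listed at 16.3 and 15.7 FPKM. *Sdc4*, a cell surface proteoglycan that binds ADAMTS proteases, was 2.01-fold higher, at 321 against 160 FPKM, also close to the threshold. *Lrp1*, the receptor that clears ADAMTS4 and ADAMTS5, was listed at 58.8 and 54.6 FPKM.

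**Figure D4:**
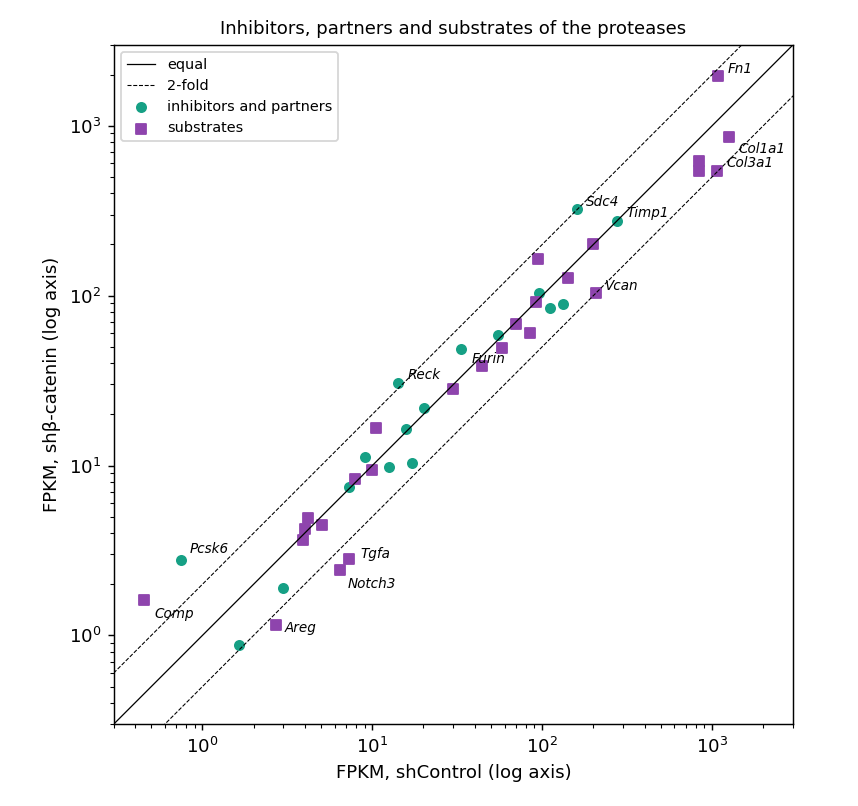
FPKM in the *shβ-catenin* library (vertical) against the shControl library (horizontal), both on log axes, for the 17 inhibitors and partners (circles) and 26 substrates (squares) that were expressed. The solid line marks equal values and the dashed lines 2-fold. *Pcsk6* and *Comp*, both under 1 FPKM in shControl, lie farthest above the upper line and *Vcan* lies on the lower one.

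Known substrates formed a list of 37 genes, of which 26 were expressed. In *shβ-catenin* cells 8 were higher and 18 lower (median log2 fold-change −0.13), where 48.7% of all expressed genes were higher. More than 2-fold higher was 1 of the 26 (3.27% of all expressed genes), and more than 2-fold lower were 3 (2.05% of all expressed genes). The higher one, *Comp*, averaged 1 FPKM or more only through the *shβ-catenin* library, where it was high (1.63 against 0.451 FPKM). Fibrillar procollagens and the matrix markers of fibroblasts overlap in this list, so it is not separate from the fibroblast markers above.

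Among growth factors and cytokines shed by ADAMs, 8 were expressed (3 higher, 5 lower). The EGF receptor ligands released by ADAM17 differed in size and direction. *Tgfa* was listed at 2.80 FPKM in *shβ-catenin* and 7.30 FPKM in shControl cells, 2.60-fold lower, and *Areg* at 1.16 and 2.70 FPKM, 2.33-fold lower. *Hbegf* was listed at 4.91 and 4.20 FPKM and *Ereg* at 3.62 and 3.90 FPKM. *Nrg1*, the neuregulin cut by ADAM19, was listed at 16.7 FPKM in *shβ-catenin* and 10.5 FPKM in shControl cells, 1.60-fold higher. *Cxcl16*, a membrane chemokine shed by ADAM10, was the most abundant, at 28.3 FPKM in *shβ-catenin* and 29.7 FPKM in shControl cells, and *Kitlg*, the ligand of the receptor KIT, was listed at 8.37 and 7.88 FPKM.

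Of the shed receptors and adhesion molecules 9 were expressed, 2 higher and 7 lower. *Notch3* was 2.67-fold lower, at 2.41 FPKM in *shβ-catenin* and 6.45 FPKM in shControl cells, while *Notch2*, the most abundant Notch gene here, was level at 91.6 and 91.7 FPKM. *App* was listed at 622 and 835 FPKM (1.34-fold lower) and *Cd44*, the hyaluronan receptor, at 59.9 and 84.3 FPKM (1.41-fold lower). *Cdh2*, the N-cadherin gene, was higher, at 163 FPKM in *shβ-catenin* and 94.9 FPKM in shControl cells.

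Among matrix substrates, *Vcan*, the versican gene and the only hyaluronan-binding proteoglycan of the list that was expressed, was listed at 103 FPKM in *shβ-catenin* and 206 FPKM in shControl cells, 1.998-fold lower and just short of the threshold (log2 fold-change −0.998). Of the proteoglycanases in the same library, *Adamts9* and *Adamts5* were higher, *Adamts1* and *Adamts4* were level, and *Adamts15*, at a low level, was 2.37-fold lower. *Ncan* was listed at 0.900 FPKM in *shβ-catenin* and 0.769 FPKM in shControl cells, *Bcan* at 0.197 and 0.0546 FPKM, and *Acan*, the aggrecan gene, at 0 in *shβ-catenin* and 0.0115 FPKM in shControl cells. Of the procollagens cut by the N-proteinases, *Col3a1* was listed at 542 FPKM in *shβ-catenin* and 1067 FPKM in shControl cells (1.97-fold lower), *Col1a2* at 540 and 836 FPKM, and *Col1a1* at 856 and 1258 FPKM. *Col5a1* was level at 202 and 199 FPKM. Of these 4 procollagen genes 3 were therefore lower. The summed N-proteinases were higher mainly through *Adamts14*, while *Adamts2* was lower.

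Of the other matrix substrates, *Comp* was 3.61-fold higher, at 1.63 FPKM in *shβ-catenin* and 0.451 FPKM in shControl cells. *Fn1*, the fibronectin gene, was 1.80-fold higher, at 1957 against 1089 FPKM. *Fbn1*, the fibrillin gene of the microfibrils that ADAMTS10 and ADAMTSL proteins bind, was listed at 127 and 141 FPKM, and *Lox*, which cross-links collagen and elastin, at 49.0 and 58.1 FPKM.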

How the data were processed

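RNA of 1 *shβ-catenin* and 1 shControl culture of NSFs was sequenced as stranded mRNA libraries in paired-end mode. According to the methods and the labels, the authors mapped the reads with TopHat2 2.0.13, Bowtie2 2.2.3 and SAMtools 0.1.19 and computed the deposited FPKM values with Cufflinks 2.2.1. The gene annotation, depth and any filter are not given in the sources used here. No scaling beyond FPKM was applied. Summaries used genes averaging 1 FPKM or more (expressed genes) and a pseudocount of 0.1 FPKM, which understates the fold-change of low genes. The members, role lists, list of partners and list of substrates were chosen with earlier results of these data known.

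Named are all expressed members, low members more than 2-fold apart with at least 0.1 FPKM in a library, the genes of each partner or substrate list past 2-fold, and up to 4 of its most abundant ones. The other genes named, such as the remaining low members, *Hbegf*, *Ereg*, *Frmd8*, *Timp4*, *Thsd4*, *Adamdec1* and the cell type markers, are not covered by it and were picked with their values in view. For averages under 1 FPKM, the relative depth of the libraries (1.20, the most frequent ratio among low genes, shared by 725 of 5239) was used to find the smallest whole fragments, up to a total of 60, that give a ratio within 0.002%. This succeeded for 64.2% of 5649 low genes, for 0.655% with the factor shifted by 1.4%, and for 2 members. On simulated data all 1000 low genes received the right pair, scored after dividing the true fragments by any common factor. These were genes with fragments in both libraries and a total of at most 60, the range searched. Genes with more fragments were not scored. That check covers the ratio and not the size of the counts.

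Of the 41 symbols, 38 matched the RefSeq table of assembly H.glaber_assembly_v1.0, which is not the assembly mapped to and served only for names and neighbors. No sequences of the members were at hand. Alternatives were pseudocounts of 0.01 and 1, an average of 5 FPKM or no lower limit, scaling by the upper quartile or the median ratio, a 4-fold threshold, and symbols held by 1 entry. The software was Python 3.11.15 with scipy 1.17.1, pandas 2.3.3, matplotlib 3.10.9 and numpy 2.4.6.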

Additional observations from a re-analysis of the deposited data

How the results depend on the processing

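The number of members more than 2-fold lower in *shβ-catenin* cells was 2 and became 1 with a pseudocount of 1, with upper quartile scaling and with median ratio scaling, since *Adam12* then fell short of 2-fold. It was 0 at the 4-fold threshold, 2 with a pseudocount of 0.01 and with a limit of 5 FPKM, and 3 without the filter, where *Adamts15* was added. The number more than 2-fold higher was 0 under each of these. The median log2 fold-change was above 0 under every alternative, from 0.03 without the filter (0.04 over all genes) to 0.16 with upper quartile scaling. Of 88 values of single members under the pseudocounts and scalings, 82 moved by less than 0.1 with the same sign and call, 6 moved further or across 2-fold, and none of the called ones changed sign. The scalings raised every value by 0.03 or less. No paired analysis was possible because there is 1 library per condition, and no library could be left out. Read depth is unknown, so counting error is given for 2 low members only.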
